A study of Mus musculus with 5 samples.

Results

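The genes described here build and control mTORC1, the kinase complex through which cells match protein synthesis to their supply of amino acids, together with its target Eif4ebp1. They are Mtor and Rptor (the kinase and its scaffold), Rragc, Rragd and Flcn (the GTPases that bring the complex to the lysosome and their activator), Sesn2, Ddit4 and Tsc2 (a leucine sensor and inhibitors), and Eif4ebp1 and Eif4ebp2 (repressors of cap-dependent translation). The members were taken by gene symbol, which gave 10 genes of 56691 listed, and all 10 had enough counts to be tested among 30580 genes. RNA came from natural killer (NK) cells of mouse spleen, lymphocytes that kill tumour and infected cells, after CRISPR editing. There were 3 libraries labelled Fli1 KO, from cells edited at Fli1, an ETS family transcription factor gene, and 2 libraries labelled NTC, the control of the editing. The sources used here do not give strain, age, culture conditions, the interval after editing, or whether a library holds 1 animal or a pool.

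mTORC1 is switched on at the surface of the lysosome. When amino acids are plentiful, heterodimers of a RagA or RagB with a RagC or RagD GTPase, held there by the Ragulator complex, recruit mTORC1, and the small GTPase RHEB then activates it. The TSC complex, of which Tsc2 encodes the GTPase-activating subunit, turns RHEB off. Sestrin 2 (Sesn2) restrains the GATOR2 complex when leucine is scarce, DDIT4 (also called REDD1) acts through TSC under hypoxia and other stress, and folliculin (Flcn) acts on RagC and RagD. Active mTORC1 phosphorylates the 4E-binding proteins, of which 4E-BP1 (Eif4ebp1) and 4E-BP2 (Eif4ebp2) are close relatives. Without phosphate these proteins bind the cap-binding factor eIF4E and hold translation back. In NK cells mTORC1 activity is known to accompany cytokine-driven growth and metabolic activation. The counts measure transcripts and not the phosphorylation through which the pathway signals.

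Sequencing depth was similar, with total counts between 5164623 and 5643791 in the Fli1 KO libraries and of 5445718 and 4718390 in the NTC libraries. Fli1 RNA stood at 390, 320 and 361 CPM (counts scaled to the library total, with TMM factors) in Fli1 KO, and at 322 and 279 CPM in NTC (edgeR adjusted p = 0.641), so the gene's count neither checks nor contradicts the labels, since a small change at a cut site leaves a transcript countable. All 10 NK marker genes examined lay over 3 times background, which is the density of counts per kb of exon on 1453 olfactory and vomeronasal receptor genes that NK cells do not use. Of the markers of other cells, 0 of 7 B cell genes (0.691 to 1.61 times background) and 0 of 6 erythroid genes lay over that limit. Among 8 T cell genes Thy1 did, and among 9 myeloid genes Itgax and Cd68 did. Hba-a2, a globin gene, was at 0 in all Fli1 KO libraries, and Hba-a1 was at 0 in both NTC libraries. The summed NK markers reached 8920 to 13283 CPM in Fli1 KO and were 6407 and 9526 CPM in NTC. The summed T cell markers reached 334 to 447 CPM in Fli1 KO and 262 to 369 CPM in NTC. Since Thy1 alone of those 8 genes lay over 3 times background, that sum is no measure of T cell content. The summed B cell markers reached 49.2 to 62.4 CPM in Fli1 KO and 50.3 to 64.8 CPM in NTC. edgeR called 0 marker genes, as did limma-voom and DESeq2. An unadjusted p under 0.05 was found for 9 of the 32 tested, 6 of them among the 10 NK genes, beside 8.94% of all tested genes. With both NTC libraries kept, Tbx21 was called lower with library size alone as the scaling and with a filter of 5 CPM in 2 libraries. Tbx21 and Ncr1 were called lower when only genes over 3 times background were fitted, and Prf1 higher without Fli1 KO 2. Calls of marker genes also differed without NTC 1, where NTC 2 stands alone for its group. Calls of marker genes thus depend on the scaling, the filter and the libraries used. The smallest p in each list belonged to Tbx21 (NK cells, log2 fold change −0.48, adjusted p = 0.145), Thy1 (T cells, 0.38, 0.508), Pax5 (B cells, −0.31, 0.708), Adgre1 (myeloid cells, −0.60, 0.449) and Alas2 (erythroid cells, −0.47, 0.727). Their part in the results was not tested. In bulk RNA, fewer cells that express a gene and less RNA per cell cannot be told apart.

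Eif4ebp1 was the single member whose change passed the test. It had 35.7, 24.3 and 29.6 CPM in Fli1 KO 1 to 3, against 13.3 and 10.4 CPM in NTC 1 and NTC 2, from 177, 136 and 147 counts in Fli1 KO and 77 and 50 counts in NTC. All Fli1 KO libraries lay above both NTC libraries. The means were 29.9 ± 5.73 CPM in Fli1 KO (SD, n = 3) and 11.9 ± 2.05 CPM in NTC (SD, n = 2). The gene (ENSMUSG00000031490, GRCm38 chromosome 8, 27260329 to 27276674) rose 2.48-fold, a log2 fold change of 1.31 (SE 0.20, 95% interval 0.90 to 1.72, edgeR quasi-likelihood test with Benjamini-Hochberg adjustment over all genes tested, adjusted p = 0.0010). The background expected from its exon length was 3.24 to 3.71 CPM in Fli1 KO and 3.04 to 3.91 CPM in NTC, so that part of the NTC signal is of the size seen on genes not in use.

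Among the members, 1 was called higher and 0 lower by edgeR, beside 0.458% of all tested genes called higher and 0.0883% called lower. Of the 7603 tested genes over 3 times background, where 9 of the 10 members lay, 130 were called higher and 22 lower. At an unadjusted p under 0.05 there were 2 higher (Eif4ebp1 and Sesn2) and 0 lower, beside 5.23% and 3.71% of all tested genes. The shares were 15.4% and 2.87% for tested genes over 3 times background. DESeq2 and limma-voom each called 1 higher and 0 lower. The median log2 fold change of the 10 genes was 0.05, against −0.02 over all tested genes and 0.11 over the 7603 tested genes that lay over 3 times background. In 6 members the Fli1 KO libraries lay wholly to 1 side of the NTC libraries, with Eif4ebp1, Sesn2 and Mtor above and Eif4ebp2, Rragc and Flcn below. Such separation was seen in 11.9% of all tested genes upwards and 13.7% downwards, and in 26.3% upwards and 7.80% downwards of the tested genes over 3 times background.

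**Figure D1:**
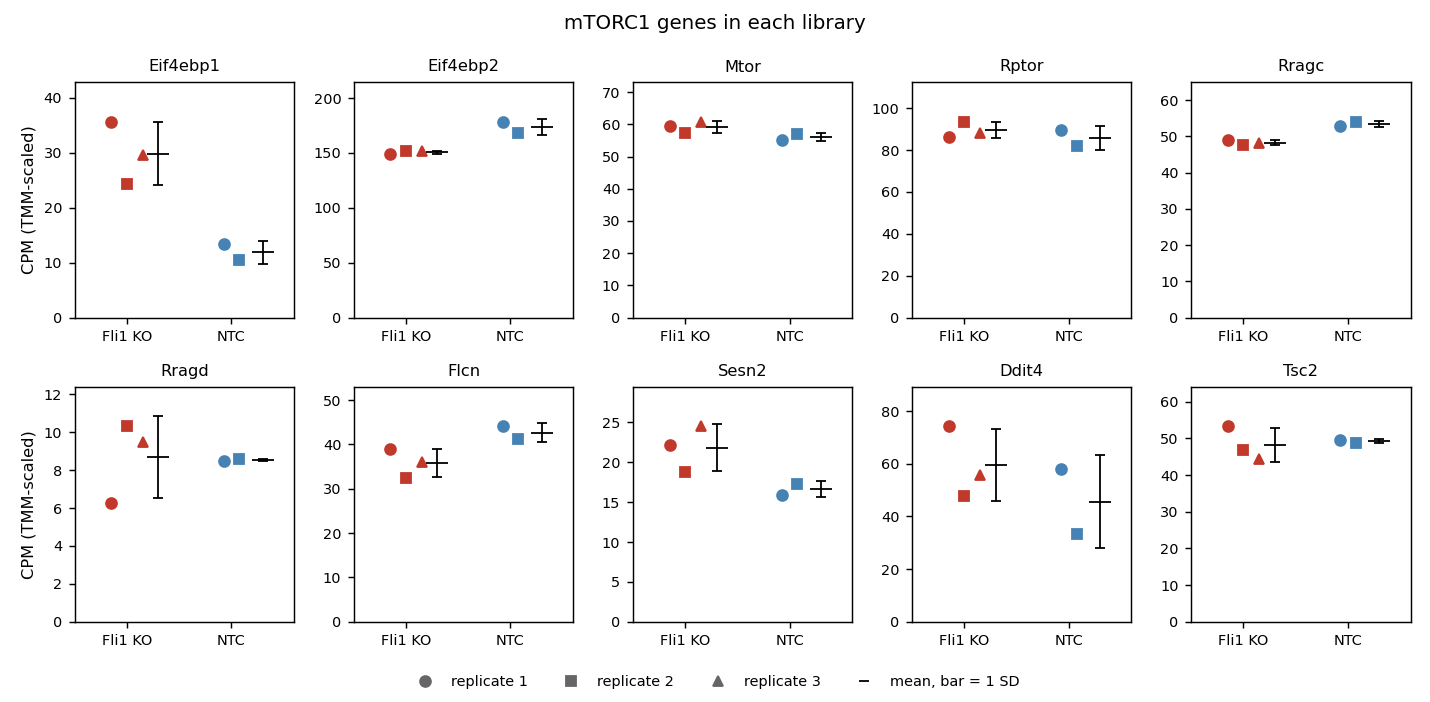
CPM of the 10 genes in each library (vertical axes start at 0; points are libraries, red for Fli1 KO and blue for NTC, bars the mean and 1 SD). Eif4ebp1 lies at 24.3 to 35.7 CPM in Fli1 KO and at 10.4 and 13.3 CPM in NTC, whereas Mtor, Rptor and Tsc2 lie near the same level in both groups.

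Eif4ebp2, whose product binds eIF4E in the same way, did not share this rise. It had 149, 152 and 151 CPM in Fli1 KO, against 179 and 168 CPM in NTC. The Fli1 KO libraries were nearly identical and lay below both NTC libraries, but the difference did not pass the test (log2 fold change −0.20, SE 0.13, 95% interval −0.47 to 0.06, edgeR adjusted p = 0.692). Its interval lies wholly below that of Eif4ebp1. Eif4ebp3, a further relative, was too low to be tested, at 0.403 to 1.41 CPM in Fli1 KO and 0.693 and 1.04 CPM in NTC. Eif4e itself stood at 36.0 ± 3.22 CPM in Fli1 KO (SD, n = 3) and 35.6 ± 0.413 CPM in NTC (SD, n = 2), with a log2 fold change of 0.02 (95% interval −0.29 to 0.32).

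Because Eif4ebp1 and Eif4ebp2 are counted in the same library, their ratio does not depend on the scaling between libraries. There were 0.240, 0.160 and 0.196 counts of Eif4ebp1 per count of Eif4ebp2 in Fli1 KO, against 0.0748 and 0.0620 in NTC, a 2.87-fold higher ratio in Fli1 KO. The ratio was above both NTC libraries in 3 of 3 Fli1 KO libraries. That follows from the separate values, since Fli1 KO lay wholly above NTC for Eif4ebp1 and wholly below it for Eif4ebp2. Of 8 such ratios and sums tested, the ratio to Eif4ebp2 was 1 of 7 at p = 0.2 in the exact two-sided permutation test over libraries, which is the smallest p that 3 against 2 libraries allow (Benjamini-Hochberg adjusted p = 0.229). The share of Eif4ebp1, another of those 7, is the same ratio in another form, so neither adds evidence to the values of the separate genes. Per kb of exon, Eif4ebp1 made up 38.7, 29.6 and 34.0% of the summed level of both genes in Fli1 KO, against 16.5 and 14.0% in NTC. The kit captured transcripts by probes, so this share and the sum may depend on each gene's probes, which was not tested. The summed level of both genes, in CPM per kb, was 39.7 ± 2.38 in Fli1 KO (SD, n = 3) and 35.4 ± 2.18 in NTC (SD, n = 2), a 1.12-fold difference. The share of Eif4ebp1 was 2.23-fold higher in Fli1 KO than in NTC. Eif4ebp1 per count of Eif4e was 2.47-fold higher in Fli1 KO (0.825 ± 0.0993, SD, n = 3) than in NTC (0.334 ± 0.0538, SD, n = 2).

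**Figure D2:**
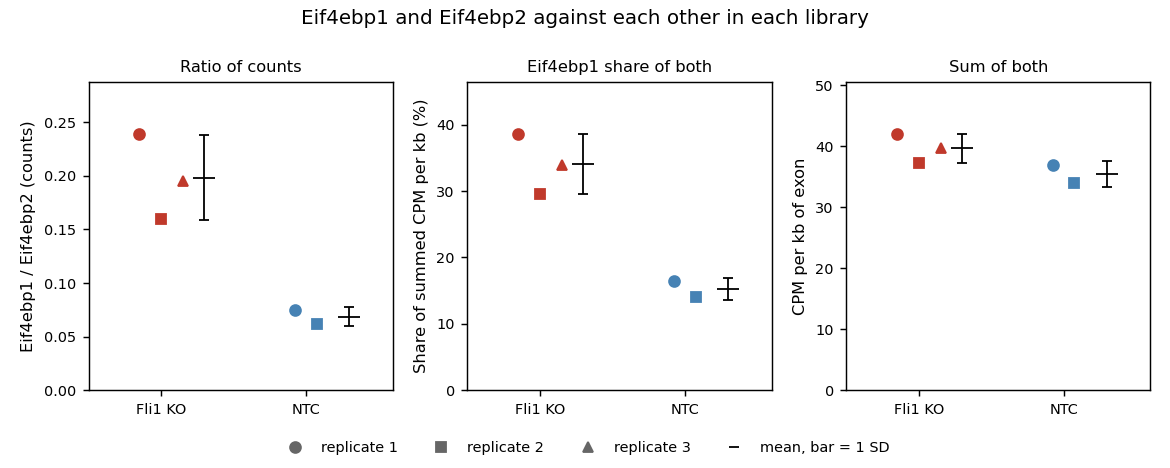
Ratio of Eif4ebp1 to Eif4ebp2 counts, the share of Eif4ebp1 in the summed level per kb (%), and that sum in CPM per kb, in each library (points; bars are the mean and 1 SD). The ratio is 0.160 to 0.240 in Fli1 KO and 0.0620 and 0.0748 in NTC, while the sum runs from 37.3 to 42.0 in Fli1 KO and is 33.9 and 37.0 in NTC.

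The kinase and its scaffold were at closely similar levels in all libraries. Mtor had 59.3, 57.3 and 60.9 CPM in Fli1 KO and 55.1 and 57.0 CPM in NTC, so that the groups were apart by a very small margin (log2 fold change 0.08, 95% interval −0.20 to 0.35, edgeR adjusted p = 0.925). Rptor, which encodes the raptor subunit that picks out substrates, had 86.4, 93.6 and 88.3 CPM in Fli1 KO and 89.8 and 81.9 CPM in NTC, and the groups overlapped (0.06, 95% interval −0.21 to 0.33, adjusted p = 0.943). With library size alone as the scaling, which moved the median of all genes to −0.14, the values were −0.05 for Mtor and −0.07 for Rptor, so no direction can be given for either.

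Fli1 binds DNA as an ETS factor at sites built on GGAA. The stretch that RefSeq gives from 250 bases before to 50 after the annotated start (GRCm38.p6) was matched for 9 of the 10 members, all but Eif4ebp1, and searched for CCGGAAGT on either strand, the full ETS consensus. It stood in 2 of the 9, Mtor and Tsc2, and in 3.89% of all 32851 such promoters. The shorter CCGGAA, which every CCGGAAGT contains, stood in 6 of the 9 and in 14.9% of all. The 32851 promoters were not limited to genes expressed in these cells. No share was counted among expressed genes, so no enrichment in the members is read from these numbers. Another motif, CACGTG, the E-box at the core of the sites of the lysosomal regulators TFEB and TFE3, stood in Rragc alone of the 9 and in 7.15% of all. TGATGNAA, a composite site of ATF4 and C/EBP factors, was in 0 of the 9 and in 3.97% of all. These 3 stretches of 60 bases are shown because they hold the letters of an ETS or TFEB site beside members whose transcripts did not pass the test, with the match in capitals:
Mtor, chr4:148448332-148448391, plus strand: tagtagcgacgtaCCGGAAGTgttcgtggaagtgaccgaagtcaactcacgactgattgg
Tsc2, chr17:24632628-24632687, minus strand: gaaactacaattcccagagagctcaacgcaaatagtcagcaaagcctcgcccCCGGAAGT
Rragc, chr4:123917296-123917355, plus strand: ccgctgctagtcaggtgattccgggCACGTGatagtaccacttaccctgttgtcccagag
The match begins at position −237 from the start of Mtor, −8 from that of Tsc2 and −112 from that of Rragc. A match is a run of letters and not a measured binding site.

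The Rag GTPases and their activator came next. Rragc had 49.0, 47.6 and 48.2 CPM in Fli1 KO and 52.9 and 54.1 CPM in NTC. Each Fli1 KO library lay below both NTC libraries, and the difference did not pass the test (log2 fold change −0.15, 95% interval −0.43 to 0.13, edgeR adjusted p = 0.808). Flcn, the GTPase-activating partner of RagC and RagD, had 38.9, 32.5 and 36.1 CPM in Fli1 KO and 44.2 and 41.2 CPM in NTC. Its groups did not overlap either, with a log2 fold change of −0.26 (95% interval −0.56 to 0.05, adjusted p = 0.640). Rragd, the paralogue of Rragc, had 6.25, 10.3 and 9.47 CPM in Fli1 KO and 8.50 and 8.56 CPM in NTC, 1.06 times background, so its transcript could not be told from the density on unused genes and no level is read from it. The ratio of Rragd to Rragc counts carries the same limit, at 0.128, 0.217 and 0.197 in Fli1 KO and 0.161 and 0.158 in NTC (exact permutation p = 0.8), and says nothing of the balance of the paralogues.

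Among the inhibitors, Sesn2 had the second smallest p of the members. It had 22.2, 18.7 and 24.6 CPM in Fli1 KO, against 16.0 and 17.3 CPM in NTC. The groups did not overlap, but Fli1 KO 2 lay close to NTC 2. The log2 fold change was 0.39 (SE 0.18, 95% interval 0.02 to 0.76), with an unadjusted p of 0.0403 and an edgeR adjusted p of 0.524, beside 8.94% of all tested genes with an unadjusted p under 0.05.

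Ddit4, an inhibitor induced by hypoxia, glucocorticoids and ATF4, had the largest SE of the members. It had 74.4, 47.8 and 55.8 CPM in Fli1 KO, against 58.1 and 33.2 CPM in NTC. NTC 1 lay among the Fli1 KO libraries and NTC 2 below them all. The log2 fold change was 0.37 (SE 0.25, 95% interval −0.19 to 0.92, edgeR adjusted p = 0.734). Without NTC 1 it was 0.85 (adjusted p = 0.0016), without NTC 2 it was 0.04 (adjusted p = 0.981), and without Fli1 KO 1 it was 0.18 (adjusted p = 0.961). The value for Ddit4 thus depends on which NTC library is used. Tsc2 had 53.5, 46.9 and 44.3 CPM in Fli1 KO and 49.6 and 48.9 CPM in NTC, and the groups overlapped (−0.03, 95% interval −0.32 to 0.26, adjusted p = 0.978). It overlaps Pkd1, which is transcribed from the opposite strand and averaged 49.3 CPM over the 5 libraries. Whether the counting used strand is not given, so reads from the overlap cannot be assigned to either.

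**Figure D3:**
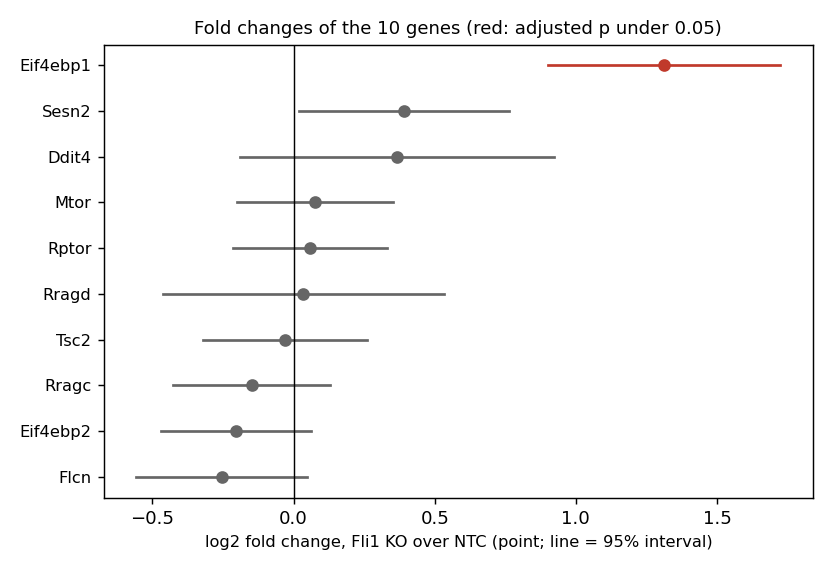
Log2 fold change of the 10 genes, Fli1 KO over NTC (points; lines are 95% intervals), with genes in rows. Eif4ebp1 stands at 1.31, the interval of Sesn2 starts at 0.02, and those of the remaining 8 genes include 0.

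Scaled to exon length, and with Rragd left out as at background, the order of the levels differed between groups mainly through Eif4ebp1. In Fli1 KO, in CPM per kb, Ddit4 was first (33.8 ± 7.79) and Eif4ebp2 second (26.1 ± 0.249), followed by Rragc (14.4 ± 0.212), Eif4ebp1 (13.6 ± 2.61), Flcn (8.29 ± 0.751), Rptor (6.64 ± 0.280), Sesn2 (6.28 ± 0.847), Mtor (5.85 ± 0.179) and Tsc2 (5.01 ± 0.489; SD, n = 3 each). In NTC the order was Eif4ebp2 (30.0 ± 1.25), Ddit4 (26.0 ± 10.0), Rragc (16.0 ± 0.259), Flcn (9.88 ± 0.5002), Rptor (6.37 ± 0.416), Mtor (5.55 ± 0.133), Eif4ebp1 (5.42 ± 0.935), Tsc2 (5.12 ± 0.0516) and Sesn2 (4.79 ± 0.282; SD, n = 2 each). Eif4ebp1 was thus at rank 4 in Fli1 KO, within its spread of Rragc, and at rank 7 in NTC, within its spread of Mtor, Tsc2 and Sesn2. Rptor, Sesn2 and Mtor lay within 1 SD of Sesn2 from each other in Fli1 KO. Ddit4 and Eif4ebp2 lay within 1 SD of Ddit4 from each other in both groups. Exon length was summed over all annotated transcripts, so a gene with long, unused exons is placed too low. The kit captured transcripts by probes, so levels per kb and multiples of background may also depend on each gene's probes. That was not tested, and the order is not a measured order of abundance.

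The rest of the pathway was read from 9 lists set by textbook composition, which hold 81 genes besides the members, 80 of them tested. edgeR called 0 of these higher and 0 lower, and DESeq2 and limma-voom called 0. At an unadjusted p under 0.05, 8 were higher and 2 lower, beside 5.23% and 3.71% of all tested genes. For tested genes over 3 times background, where 54 of the 80 lay, these shares were 15.4% and 2.87%. The median log2 fold change of the 80 was 0.07, against −0.02 over all tested genes and 0.11 over those above 3 times background. Of the 80, 48 were positive (beside 47.6% of all tested genes and 70.5% of those over 3 times background). Fli1 KO lay apart from NTC upwards in 14 of the 80 and downwards in 12. These counts are a description and stand beside 11.9% and 13.7% of all tested genes, and 26.3% and 7.80% of those over 3 times background. Without NTC 1, where NTC 2 stands alone for its group, further genes of the pathway were called higher. More genes were called higher over all tested genes too, so nothing particular to the pathway is read from it. Without any other library Eif4ebp1 was the only call.

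Prkab1, the beta subunit of AMPK, the energy sensor that opposes mTORC1, came nearest to a call. It had 73.8, 71.5 and 69.7 CPM in Fli1 KO, against 48.7 and 50.6 CPM in NTC. The groups lay far apart for their spread, with a log2 fold change of 0.53 (SE 0.13, 95% interval 0.25 to 0.81, edgeR adjusted p = 0.0885). It was called with the replicate number as a block. The other 8 genes of the AMPK and LKB1 list had log2 fold changes no further from 0 than 0.21.

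In the lists of complexes upstream of mTORC1 and of its own subunits, the gene with the smallest p did not pass the test. Of 9 mTORC1 and mTORC2 subunits that gene was Mlst8, the subunit both complexes share, at 15.6 ± 3.71 CPM in Fli1 KO (SD, n = 3) and 23.5 ± 0.129 CPM in NTC (SD, n = 2; log2 fold change −0.59, edgeR adjusted p = 0.257). Of 7 genes around TSC and RHEB it was Rheb, the direct activator of mTORC1, at 81.7, 67.1 and 80.6 CPM in Fli1 KO and 64.8 and 45.5 CPM in NTC (0.46, adjusted p = 0.297). Both of these lists held values on either side of 0, with medians of 0.05 and −0.11. Of 10 Rag and Ragulator genes it was Lamtor5 (0.35, adjusted p = 0.662), and the list's median was 0.13. Of 12 genes of GATOR1, GATOR2 and KICSTOR it was Seh1l (0.31, adjusted p = 0.584), and the median was 0.10.

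Among 7 amino acid sensor genes, Bmt2 (also called SAMTOR, a sensor of S-adenosylmethionine) had the smallest p, at 66.7 ± 9.97 CPM in Fli1 KO (SD, n = 3) and 51.9 ± 10.2 CPM in NTC (SD, n = 2; log2 fold change 0.36, adjusted p = 0.499). Sesn1 and Sesn3, the relatives of Sesn2, stood at −0.16 and −0.04. Of the partners of folliculin, Fnip1 stood at 0.01 and Fnip2 at −0.27 (adjusted p = 0.731), where Fli1 KO lay below NTC at 1.13 times background. Of 16 genes of the lysosomal V-ATPase, the proton pump that works with Ragulator, 11 were positive (68.8%). That is near the 70.5% of all tested genes over 3 times background, where 15 of the 16 lay. Atp6v1e1 had the smallest p of the 16 (48.4 ± 4.26 CPM in Fli1 KO and 33.9 ± 4.52 CPM in NTC, 0.51, adjusted p = 0.194). Among 17 tested effectors of mTORC1 Eif4ebp1 was the only call.

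**Figure D4:**
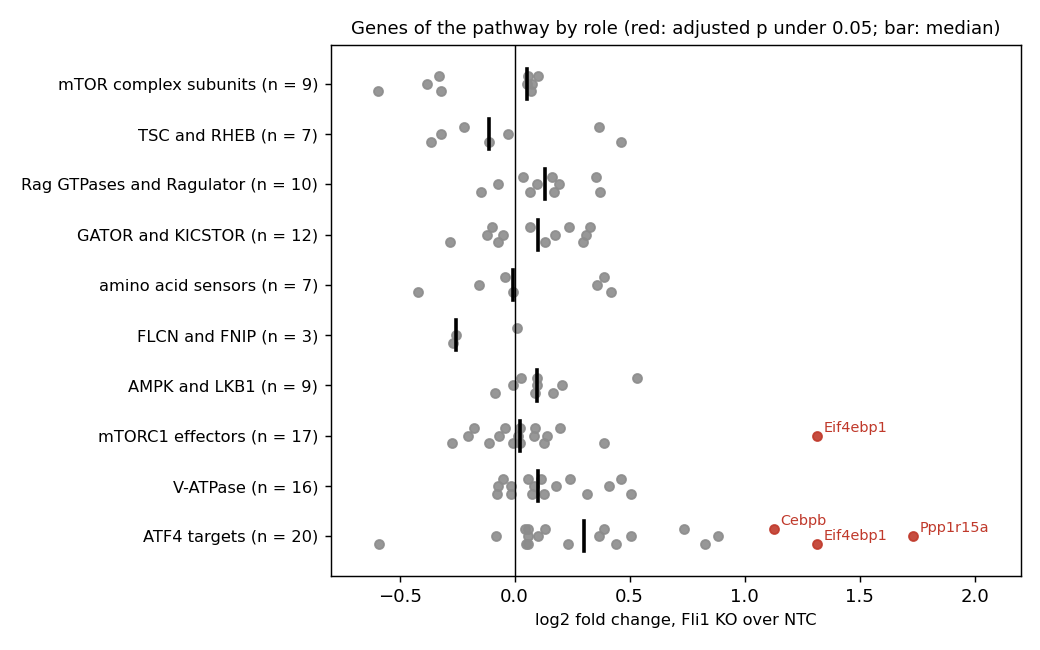
Log2 fold change, Fli1 KO over NTC, of each tested gene (points) by role, with the median of each list as a bar. Of the 9 pathway lists the effectors hold the only called gene, Eif4ebp1 at 1.31, and the ATF4 target list below them holds it again with Cebpb and Ppp1r15a.

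Eif4ebp1, Sesn2 and Ddit4 are known targets of ATF4, the transcription factor of amino acid shortage, and were set beside other targets. Atf4 itself, a gene outside the members, rose (198.7, 157.0 and 185.2 CPM in Fli1 KO, against 119.6 and 92.5 CPM in NTC; log2 fold change 0.76, edgeR adjusted p = 0.0143). Of 20 ATF4 targets edgeR called 3 higher, beside 0.458% of all tested genes and 130 of the 7603 over 3 times background. It called 0 lower, as did DESeq2 and limma-voom. The 3 called higher were Eif4ebp1, Cebpb, a partner of ATF4 (1.13, adjusted p = 0.00479), and Ppp1r15a, a phosphatase subunit that restores translation (1.73, adjusted p = 1.0e-05). Without Fli1 KO 1 Cebpb was not called, leaving 2. Without NTC 1, where NTC 2 stands alone for its group, more targets were called higher, as were more of all tested genes. At an unadjusted p under 0.05, 7 of the 20 were higher and 1 lower, beside 5.23% and 3.71% of all tested genes. Among tested genes over 3 times background, where 12 of the 20 lay, these shares were 15.4% and 2.87%. The median log2 fold change of the list was 0.30, against −0.02 over all tested genes and 0.11 over those above 3 times background. Of the 20, 18 were positive, beside 47.6% and 70.5% of those 2 sets. The targets include members and genes chosen with results known. Counts of Eif4ebp1 per count of Sesn2 were 1.91-fold higher in Fli1 KO than in NTC and per count of Ddit4 1.88-fold higher, while per count of Atf4 they were 1.46-fold higher (exact permutation p = 0.2 for each, the smallest possible).

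The 5 non-member genes whose log2 CPM ran most like that of Eif4ebp1 over the 5 libraries were Metrnl, Plk3, Ltb4r1, Xbp1 and Eif1. They were chosen from 14610 tested genes that averaged 5 CPM or more. IDs without a symbol and provisional names, such as Gm and Rik names, had been left out. Likeness was the root mean square difference of log2 CPM, each centred on its own mean, and was 0.08 for Metrnl, a secreted factor, 0.10 for Plk3, a stress-responsive polo-like kinase, 0.12 for Ltb4r1, a leukotriene receptor, 0.13 for Xbp1, a factor of the unfolded protein response, and 0.14 for Eif1, which helps to select the start codon. Metrnl had 175, 107 and 152 CPM in Fli1 KO, against 69.7 and 50.8 CPM in NTC, so that Fli1 KO 1 was highest and NTC 2 lowest, as for Eif4ebp1. Each of the 5 had a log2 fold change from 1.15 to 1.47, which follows from the way they were chosen.

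Left out in turn, no library ended the call of Eif4ebp1. Its log2 fold change was 1.18 without Fli1 KO 1 (adjusted p = 0.0380), the weakest support, and 1.47 and 1.34 without Fli1 KO 2 and Fli1 KO 3. It was 1.53 without NTC 1 and 1.16 without NTC 2, where the lone NTC library is taken to vary like the Fli1 KO libraries. Sesn2 and Eif4ebp2 were not called in any of these fits.

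**Figure D5:**
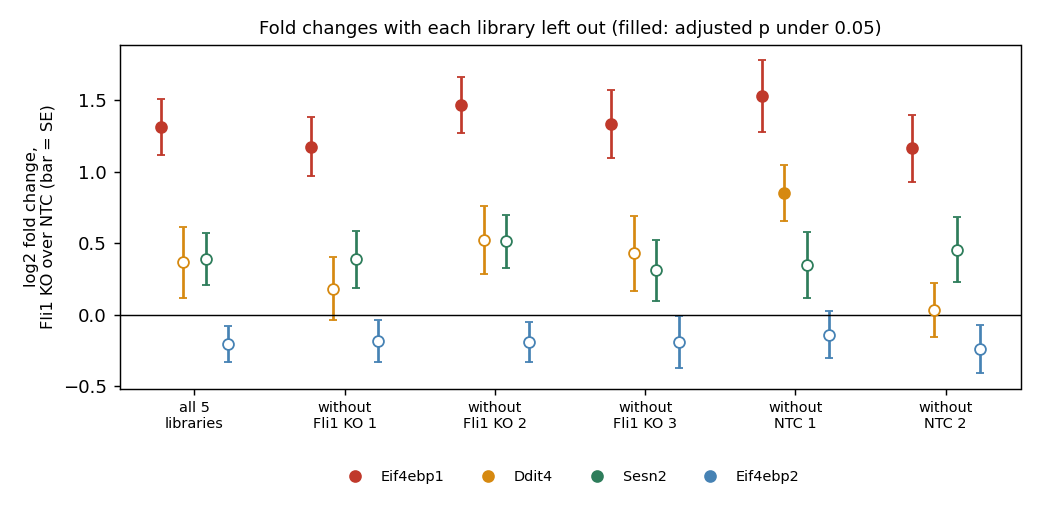
Log2 fold change, Fli1 KO over NTC, of Eif4ebp1, Ddit4, Sesn2 and Eif4ebp2 with all 5 libraries and with each library left out (bars are 1 SE; filled points have an adjusted p under 0.05). Eif4ebp1 keeps its call throughout at 1.16 to 1.53, and Ddit4 is called without NTC 1 alone.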

How the data were processed

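RNA of 5 libraries was prepared from 10 ng with a kit that captures transcripts by probes, per the labels' protocols. Per the submitters' processing notes, the tools were FastQC 0.12.0, Trimmomatic 0.39 and STAR 2.7.11, with mm10. The sources used here do not say how reads were counted or with which strand setting and annotation. The table the authors deposited has raw counts for each Ensembl ID, without normalization or a line for unassigned reads.

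Symbols were found for 52073 of 56691 IDs. Coordinates and exon lengths came from GENCODE M21 on GRCm38 (mm10). Genes passing edgeR's filterByExpr (minimum 10 counts) were scaled with TMM. Fli1 KO was set against NTC in the robust form of the quasi-likelihood test of edgeR (version 4.0.16 in R 4.3.3). P-values were adjusted over all tested genes with Benjamini-Hochberg, and a gene was called below 0.05. The common biological coefficient of variation was 0.120. Intervals of fold changes are at 95% and rest on the fitted spread. Ratios were tested with exact permutations (scipy 1.17.1). The labels do not say that libraries come from separate animals, so p-values measure the spread between these samples, which may be technical.

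The members, lists and tests were chosen with earlier results of these data known. Named are Fli1, the 10 members, up to 4 called genes of each list or else the gene with the smallest p, and the 5 genes most like Eif4ebp1. Outside that rule, Atf4, relatives of members, Pkd1, marker genes and genes called under an alternative are named as examples. Varied were size factors, filters, the genes fitted, each left-out library, a replicate block, and the tools limma-voom (limma 3.58.1) and DESeq2 1.42.0.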

Additional observations from a re-analysis of the deposited data

How the results depend on the processing

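Eif4ebp1 kept its direction and its call in all 14 alternatives, with log2 fold changes from 1.16 to 1.53 and adjusted p up to 0.0380. The difference in its log2 ratio to Eif4ebp2 was 1.52, 1.51 with a pseudocount of 1 on both genes, and 1.38 to 1.67 with a library left out. Sesn2 stayed positive (0.26 to 0.51), and Eif4ebp2, Flcn and Rragc stayed negative, without a call. Mtor, Rptor, Rragd and Tsc2 changed sign in some alternatives and were called in none. The count of all genes called, 140 higher and 27 lower, moved most: 92 and 71 with library size alone, 239 and 56 without a filter, 59 lower among genes over 3 times background (where Prr5 was the 1 pathway gene called lower), and 46 to 703 higher and 3 to 174 lower with a library left out. Leaving out a library gave 1 to 2 members and 1 to 7 pathway genes called higher. The cause was not tested.

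With the replicate number as a block, 728 genes were called higher and 193 lower, 2 members higher (Eif4ebp1 and Ddit4, the second at 0.43 with adjusted p = 0.0290), and 6 pathway genes, members included, higher (Atp6v0c, Atp6v1e1, Ddit4, Eif4ebp1, Prkab1 and Rheb) and 1 lower (Mlst8). Marker genes called in that fit were 5 higher (Gzma, Gzmb, Il2rb, Prf1 and Thy1) and Tbx21 lower. That fit leaves 1 residual degree of freedom, and the numbers are not known to pair libraries. Deviations of same-numbered libraries from their group means correlated at 0.07 and 0.14 across genes, and with the numbers crossed at −0.07 and −0.14. With 2 NTC libraries the NTC deviations mirror each other, so crossing only turns the sign. The correlations therefore cannot show whether libraries are paired. At 50 to 177 counts per library, Eif4ebp1 is near the depth at which smaller changes would be missed, and Rragd is at background.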

Other observations

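Within groups, Eif4ebp1 was highest in Fli1 KO 1, then Fli1 KO 3, then Fli1 KO 2, and higher in NTC 1 than in NTC 2. Ddit4 and Flcn had the same order among the members, as did 31 of the 80 tested pathway genes outside them (38.8%), beside 13.4% of all tested genes. So did 10 of 20 ATF4 targets, a count that holds Ddit4 again and Eif4ebp1 itself, whose match is given by definition. Of the 54 of those pathway genes that lay over 3 times background 26 had it (48.1%), beside 36.8% of all 7603 tested genes over that limit. Of the 20 ATF4 targets 12 lay over that limit, and how many of those 12 had the order was not counted.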
